A study of Mus musculus with 9 samples.

Results

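Mitosis, spindle and kinetochore genes were followed in differentiating mouse muscle cells: 47 genes, matched by symbol through their Ensembl identifiers among the 47729 genes of the count table. They are given by name, and the rule uses no measured value, though they were chosen with earlier results of these data known. A level of at least 1 CPM (read counts scaled to a common library size) in at least 3 of the 9 libraries was reached by all 47 and by 13324 genes in all, so every member was tested. The members fell into 11 roles. These were the mitotic cyclins and their kinase (Ccna2, Ccnb1, Ccnb2, Cdk1), the entry kinases (Plk1, Aurka), the spindle checkpoint (Bub1, Bub1b, Mad2l1, Ttk), anaphase and the anaphase-promoting complex (Cdc20, Ube2c, Espl1, Pttg1) and the chromosomal passenger complex (Aurkb, Birc5, Incenp, Cdca8). The others were the centromere and kinetochore (Cenpa, Cenpe, Cenpf, Ndc80, Nuf2, Spc24, Spc25), kinesin motors (Kif11, Kif18b, Kif20a, Kif20b, Kif22, Kif23, Kif2c, Kif4), spindle microtubule binders (Tpx2, Nusap1, Prc1, Hmmr), condensin and chromosome structure (Top2a, Mki67, Ncapg, Ncapd2, Smc2, Smc4), cytokinesis (Anln, Ect2) and transcription factors (Foxm1, Mybl2).

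The cells were C2C12, a mouse myoblast line that divides in rich serum and, when the serum is changed, leaves the cell cycle and fuses into multinucleate myotubes. Per1 and Per2, which encode repressors of the circadian clock, had each been disrupted with CRISPR-Cas9, giving the populations Per1KO and Per2KO. The control, WT, was C2C12 treated with a non-target guide RNA. Each population was sampled in growth medium with fetal bovine serum (day 0) and after 3 and 5 days in horse serum, with 1 poly(A) RNA library per population and day. The labels do not say whether a knockout population was 1 clone, and they give whole muscle as the tissue beside the cell line. With 1 library in each of the 9 groups, differences between genotypes were tested over the 3 days and differences between days over the 3 genotypes, so the days or genotypes stood in for replicates. The p-values therefore measure the spread around that additive model, which may be technical.

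Library totals were 5020385 to 6773320 counts in WT and 41997763 to 48051824 in the knockouts, and only WT titles carried a suffix (L002), while knockout titles carried none. Depth thus separated all WT from all knockout libraries, and in every comparison with WT genotype and whatever set the depth cannot be told apart. Per1 mRNA did not separate the labels, while for Per2 all Per2KO libraries lay below all WT libraries and overlapped those of Per1KO. Per1 was at 35.6, 33.8 and 31.01 CPM in WT on days 0, 3 and 5, at 20.9, 32.4 and 29.0 CPM in the libraries labelled Per1KO, and at 16.5, 30.4 and 32.9 CPM in those labelled Per2KO. Per2 was at 9.75, 11.5 and 20.5 CPM in WT, at 6.59, 9.44 and 10.6 CPM in Per1KO, and at 3.50, 9.13 and 8.38 CPM in Per2KO. An edited gene can still be transcribed, so these levels do not show whether protein was lost. All 6 myogenic markers were present, with Myod1 at 58.7 to 165 CPM. Of the 4 leukocyte markers, Adgre1 and Cd3e had no count in any library, Ptprc reached at most 0.220 CPM, and Cd68 was at 0.560 to 1.98 CPM. The adipocyte marker Adipoq also had none, and the summed endothelial markers reached at most 3.62 CPM. Fibro-adipogenic markers were detected in every library, summing to 174 to 1330 CPM.

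In a dividing cell, cyclin B with CDK1 starts mitosis, and condensin and topoisomerase II compact the chromosomes. Kinetochores then attach the chromosomes to the spindle. The spindle checkpoint holds back the anaphase-promoting complex until attachment is complete, after which securin and cyclin are destroyed, separase opens cohesin and the cell divides. Most of these genes are transcribed late in the cell cycle. Many of their promoters hold a cell cycle genes homology region (CHR), which recruits the MuvB core: with pocket proteins and E2F4 it forms the repressive DREAM complex of resting cells, and with B-Myb (Mybl2) and FoxM1 it activates. CCAAT boxes nearby bind the activator NF-Y. In muscle, myoblasts leave the cell cycle before they fuse, and the nuclei of myotubes do not normally divide again.

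Promoter sequences of 6 members are shown because the whole group moved together with differentiation and because these windows hold, or lack, those elements. Each is the 250 bases before the RefSeq start on GRCm38.p6, written 5′ to 3′ on the gene's strand, with matches to the motifs searched in capitals. Cdc20 activates the anaphase-promoting complex (chr4:118437344-118437593, minus strand). Cdk1 is the mitotic kinase (chr10:69352913-69353162, minus strand), Ccnb1 its cyclin (chr13:100786487-100786736, minus strand), and Top2a is topoisomerase II alpha (chr11:99024190-99024439, minus strand). Ube2c is the ubiquitin-conjugating enzyme of the anaphase-promoting complex (chr2:164769679-164769928, plus strand), and Mad2l1 encodes the checkpoint protein Mad2 (chr6:66534971-66535220, plus strand).
Cdc20: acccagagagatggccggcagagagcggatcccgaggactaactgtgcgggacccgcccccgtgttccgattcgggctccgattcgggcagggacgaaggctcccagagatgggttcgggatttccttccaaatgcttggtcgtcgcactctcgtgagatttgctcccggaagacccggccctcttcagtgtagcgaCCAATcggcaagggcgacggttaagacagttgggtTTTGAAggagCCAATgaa
Cdk1: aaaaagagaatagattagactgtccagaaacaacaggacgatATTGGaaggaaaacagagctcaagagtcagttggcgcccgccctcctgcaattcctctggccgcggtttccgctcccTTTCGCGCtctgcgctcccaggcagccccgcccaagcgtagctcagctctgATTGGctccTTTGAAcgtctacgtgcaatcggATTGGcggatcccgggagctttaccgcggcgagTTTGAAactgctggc
Ccnb1: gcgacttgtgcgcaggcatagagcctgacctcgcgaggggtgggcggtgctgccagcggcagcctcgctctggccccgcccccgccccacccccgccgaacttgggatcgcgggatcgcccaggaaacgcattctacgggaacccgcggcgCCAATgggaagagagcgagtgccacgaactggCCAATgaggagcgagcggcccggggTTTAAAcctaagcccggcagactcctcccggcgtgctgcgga
Top2a: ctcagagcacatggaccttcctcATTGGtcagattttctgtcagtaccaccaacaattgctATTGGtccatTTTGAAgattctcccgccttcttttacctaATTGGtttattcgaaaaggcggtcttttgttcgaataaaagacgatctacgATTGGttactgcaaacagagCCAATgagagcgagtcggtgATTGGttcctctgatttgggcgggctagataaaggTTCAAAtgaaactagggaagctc
Ube2c: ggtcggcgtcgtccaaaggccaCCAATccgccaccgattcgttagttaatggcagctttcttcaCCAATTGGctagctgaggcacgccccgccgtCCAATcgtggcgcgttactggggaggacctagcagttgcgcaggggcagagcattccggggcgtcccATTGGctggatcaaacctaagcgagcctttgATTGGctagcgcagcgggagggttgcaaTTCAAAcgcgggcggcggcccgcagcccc
Mad2l1: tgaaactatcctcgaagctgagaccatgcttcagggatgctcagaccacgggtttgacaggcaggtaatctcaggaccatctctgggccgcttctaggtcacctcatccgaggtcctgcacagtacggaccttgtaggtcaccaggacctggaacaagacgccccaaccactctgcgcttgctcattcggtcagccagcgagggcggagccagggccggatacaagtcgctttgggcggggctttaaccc
The letters searched on both strands were TTTGAA and TTTAAA for the CHR, CCAAT for the CCAAT box, and TTTCCCGC, TTTGGCGC, TTTCGCGC and TTTGCCGC for E2F. Matches that overlap were each counted, as at the CCAATTGG of Ube2c, which was counted on each strand. In Cdc20 a CHR lay 18 bases before the start, between CCAAT boxes. Cdk1 held 2 CHR and 3 CCAAT matches and an E2F match. Top2a and Ube2c each held 6 CCAAT matches, whereas Mad2l1 held none of the 3 motifs in this stretch. GENCODE places the start of Mad2l1 further downstream, at 66535390, so the stretch may not be the promoter in use. The GENCODE starts of Ccnb1 (100786570), Cdk1 (69352938), Ube2c (164769898) and Cdc20 (118437352) lie inside the stretches shown, so these starts are uncertain as well.

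Of the 47 members, 39 had a RefSeq window of 300 bases (250 before the start and 50 after it). Kif20a, Ccna2, Foxm1, Aurkb, Smc4, Spc24, Tpx2 and Incenp were not analysed here for motifs. A CHR was found in 33 of the 39 (84.6%), against 28.2% of 17492 protein-coding genes. Within 50 bases on either side of the start it was found in 29 members (74.4%), against 7.98% of coding genes. This narrower window was chosen after seeing the matches. CCAAT occurred in 29 members (74.4%) against 42.3%, and 20 members (51.3%) held 2 or more against 14.6%. Both elements stood together in 28 members (71.8%) against 11.5%. The E2F letters occurred in 3 members (7.69%) against 3.29%. Bub1, Mad2l1, Pttg1, Nuf2, Nusap1 and Mybl2 had no CHR letters in the window. The 39 members had 41 windows, and in 26 of these the 50 bases after the start were found in a GENCODE transcript of the gene. A window, with or without a match, may thus lie away from the start in use. These shares describe letters in a window, not bound sites, and no binding was measured.

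**Figure D1:**
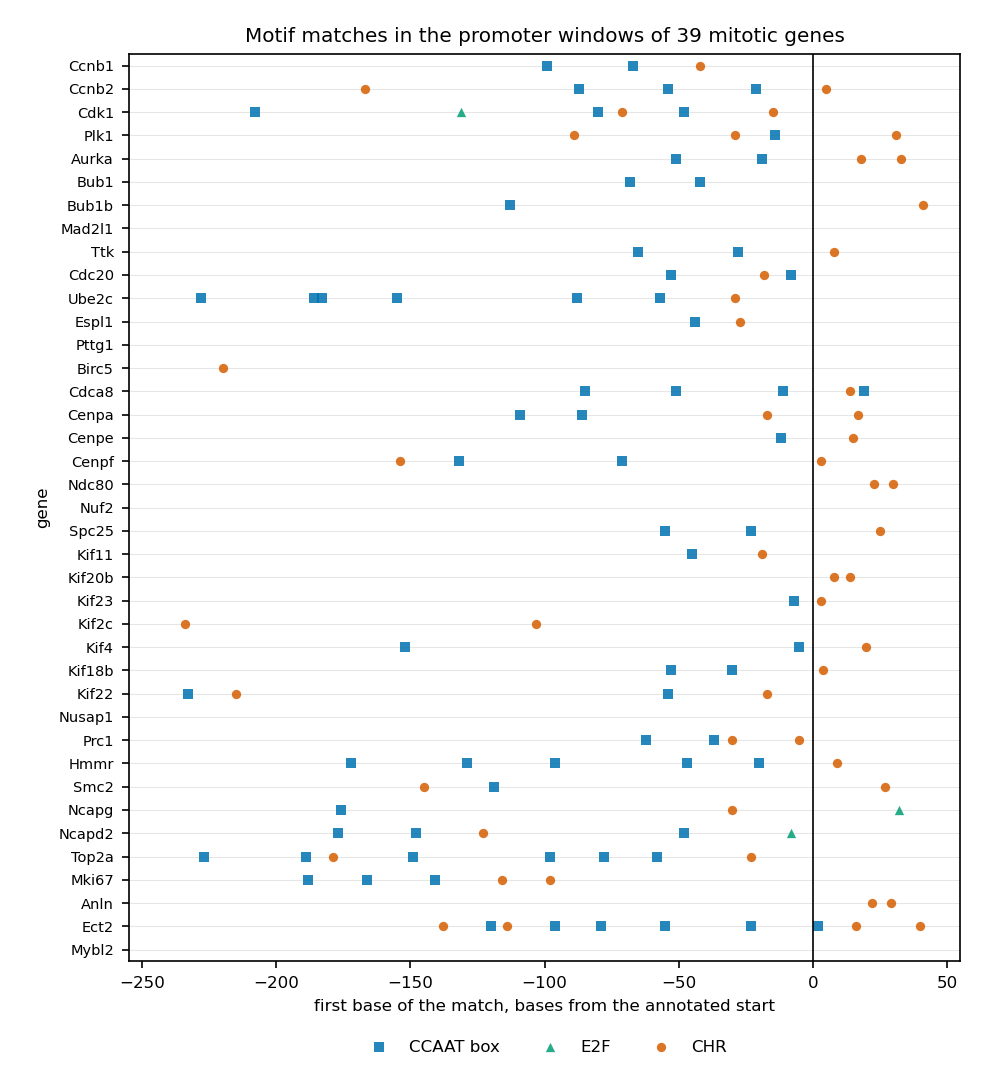
Positions of CHR, CCAAT and E2F matches (marker shape and colour) from 250 bases before to 50 bases after the RefSeq start (x axis, bases) in the 39 members with a window (one row each; members with 2 windows are overlaid). CHR matches lie close to the start in most rows, CCAAT matches mostly before it, and 3 rows hold an E2F match.

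As a group, the members took a falling share of all counts over the days of differentiation. On day 0 their summed level was 5267 CPM in WT, 7792 CPM in Per1KO and 6269 CPM in Per2KO. On day 3 it was 1747, 2527 and 2642 CPM, and on day 5 it was 706, 1048 and 1081 CPM in the same order of populations. The sum thus fell 7.46-fold from day 0 to day 5 in WT, 7.44-fold in Per1KO and 5.80-fold in Per2KO. In WT the members made up 0.551% of tested counts on day 0 and 0.0641% on day 5. In bulk RNA, fewer dividing cells and less of each mRNA per cell cannot be told apart. Counts behind single members were smallest in WT on day 5, where the lowest was 7 (Mybl2).

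**Figure D2:**
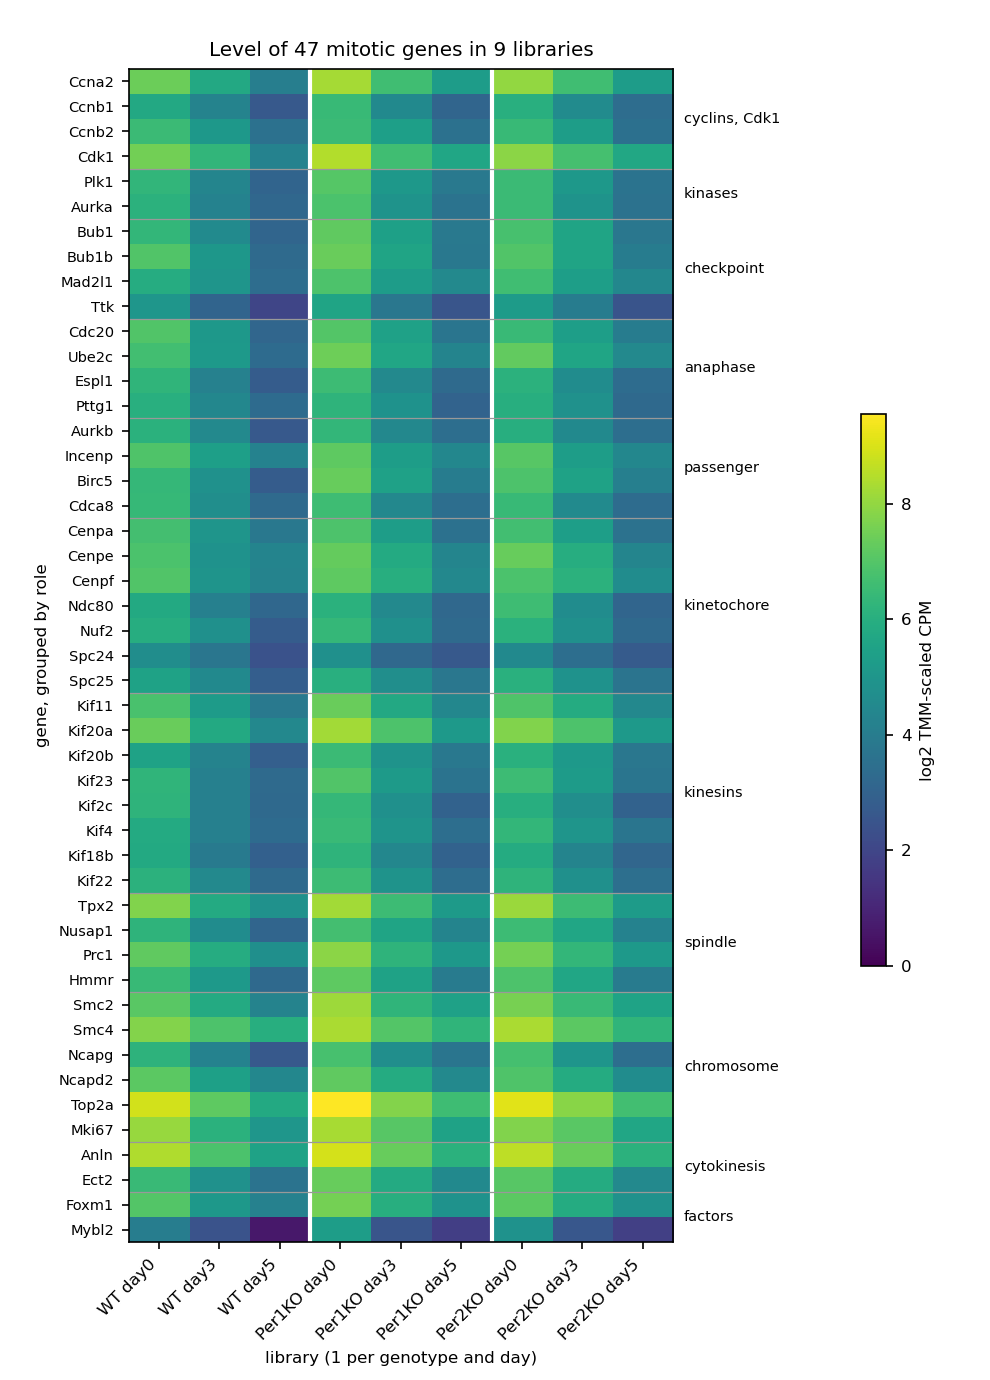
Level of each of the 47 members (CPM on a log scale) in the 9 libraries, with members grouped by role. For every member the day 0 libraries have the highest levels and the day 5 libraries the lowest.

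Per kilobase of exon, the level of Top2a, which untangles DNA, was the highest of all members in Per1KO on day 0, at 83.4 CPM per kb, followed by cyclin A2 (Ccna2) at 74.5 and Cdk1 at 70.6. Mybl2 was lowest at 8.66 CPM per kb. The level of Top2a over days 0, 3 and 5, in CPM, was 473, 147 and 56.3 in WT, 751, 220 and 95.3 in Per1KO, and 551, 232 and 102 in Per2KO. No library of a later day overlapped those of an earlier day for this gene. The same held for all 47 members: all 3 libraries of day 0 lay above all 3 of day 3, which lay above all 3 of day 5. Of all tested genes, 5.37% kept that order.

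Against day 0, all 47 members were lower on day 3 (edgeR quasi-likelihood test, Benjamini-Hochberg adjusted over 13324 genes, threshold 0.05). Of all genes, 16.9% were called lower. The members' median log2 fold change was -1.54, a 2.92-fold fall, and the values ran from -2.32 to -1.15 with standard errors (SE) of 0.12 to 0.23. On day 5 all 47 were again lower than on day 0, against 22.9% of all genes. The median was -2.92 (7.55-fold lower), the range -3.36 to -2.0, and the adjusted p-values 7.61e-06 to 0.000128. The median over all genes was -0.01 in both comparisons.

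Among the genes that drive entry, Cdk1 was at 181, 79.0 and 18.9 CPM in WT over the 3 days, at 349, 99.2 and 51.0 CPM in Per1KO, and at 239, 106 and 53.4 CPM in Per2KO. Its log2 change from day 0 to day 5 was -2.68 (SE 0.24, adjusted p = 0.000107 by edgeR), the smallest fall of its role. Plk1, the kinase that promotes entry and spindle assembly, was at 77.7, 20.6 and 8.36 CPM in WT, at 130, 34.4 and 14.5 CPM in Per1KO, and at 92.0, 34.1 and 12.6 CPM in Per2KO. The groups by day did not overlap, and its log2 change was -3.08 (SE 0.14). The cyclins Ccna2, Ccnb1 and Ccnb2 changed by -2.97, -2.99 and -2.93, and Aurka, which matures the centrosomes, by -3.05.

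The checkpoint held both the largest fall of all members and one of the smallest. Bub1b (BubR1, an inhibitor of Cdc20) was at 126, 33.4 and 9.90 CPM in WT, at 163, 47.4 and 14.2 CPM in Per1KO, and at 125, 47.3 and 16.1 CPM in Per2KO. Its day 5 to day 0 change was -3.36 (SE 0.16, 10.3-fold lower), while that of Mad2l1 was -2.33 (SE 0.17). The kinases Bub1 and Ttk (Mps1) changed by -3.20 and -2.96. Among the anaphase genes, Cdc20, Espl1 (separase), Pttg1 (securin) and Ube2c changed by -3.13, -3.16, -2.90 and -3.04. Ube2c overlaps the troponin gene Tnnc2 on the opposite strand over 22.8% of its exon bases. Tnnc2 counts went from 1 to 44 in WT and from 5 to 2749 in Per1KO between day 0 and day 5, while those of Ube2c went from 721 to 46 and from 8591 to 827.

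Among the kinetochore genes, Cenpe, the kinesin that links kinetochores to microtubules, was at 114, 29.6 and 20.01 CPM in WT, at 158, 57.0 and 20.4 CPM in Per1KO, and at 161, 62.6 and 20.3 CPM in Per2KO. Its 3 day 5 libraries were thus nearly equal while its day 3 libraries were not. The 4 subunits of the Ndc80 complex, which binds microtubule ends, differed in their log2 change from day 0 to day 5: Ndc80 -3.02 and Nuf2 -2.99, but Spc25 -2.37 and Spc24 -2.02. The subunits of the latter pair fold together next to the chromosome. Spc24 also had the lowest CPM of the kinetochore members, at 23.0 to 27.5 CPM on day 0 and 5.28 to 6.63 CPM on day 5. These CPM are not scaled to exon length, and Spc24 has 2573 exon bases against 8620 for Cenpe. The histone variant Cenpa changed by -3.11 and Cenpf by -2.55. In the passenger complex, Aurkb (the kinase), Birc5 (survivin), Cdca8 (borealin) and the scaffold Incenp changed by -2.86, -3.18, -3.09 and -2.69. Incenp was at 120, 42.5 and 18.7 CPM in WT, at 144, 39.5 and 21.3 CPM in Per1KO, and at 136, 39.4 and 21.7 CPM in Per2KO.

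All 8 kinesins were lower on day 5, between -3.12 for the depolymerase Kif2c and -2.51 for Kif20b. Kif20a, a kinesin of the central spindle, was at 164, 55.8 and 22.0 CPM in WT, at 299, 119 and 34.8 CPM in Per1KO, and at 217, 119 and 36.1 CPM in Per2KO. It overlaps Cdc23 on the opposite strand over 29.3% of its exon bases. Tpx2, which activates Aurora A on the spindle, changed by -2.94, Hmmr by -3.09, and both Nusap1 and Prc1 by -2.56. The cytokinesis genes Anln (anillin) and Ect2, which activates RhoA at the division plane, changed by -2.74 and -2.73.

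In the chromosome group, condensin subunits spread most. Ncapg changed by -3.25 (SE 0.15), Ncapd2 by -2.57, Smc2 by -2.51 and Smc4 by -2.0 (SE 0.13), which was the smallest fall among all members. Smc4 went from 221 to 63.3 CPM in WT between day 0 and day 5, from 326 to 77.0 CPM in Per1KO and from 325 to 75.9 CPM in Per2KO. Mki67, which coats mitotic chromosomes and serves as a proliferation marker, changed by -2.67. Foxm1, the activator of late cell cycle genes, was at 128, 34.1 and 18.3 CPM in WT, at 187, 63.0 and 28.9 CPM in Per1KO, and at 140, 59.2 and 28.8 CPM in Per2KO. Its change was -2.60 (SE 0.15). Mybl2 was at 16.7, 5.47 and 1.54 CPM in WT, at 40.1, 5.74 and 3.44 CPM in Per1KO, and at 29.4, 6.002 and 3.48 CPM in Per2KO. It had the largest fall of any member by day 3 (-2.32, SE 0.23), with -3.28 by day 5. The 33 members with CHR letters had a median day 5 change of -2.95 (range -3.36 to -2.37), and the 6 without had -2.94 (range -3.28 to -2.33).

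The fall continued between day 3 and day 5. Of the 47 members, 45 were lower on day 5 than on day 3, against 1.09% of all genes. Of the 145 genes called lower in that comparison, 45 were members (31%). Another 43 (29.7%) came from a separate list of 71 mitotic genes. The remaining 57 were on neither list and were not sorted by function. The members' median log2 change was -1.29 (2.44-fold lower), with Ccnb2 (-1.74, SE 0.12), Hmmr (-1.67) and Bub1b (-1.66) changing most. Spc24 (-0.82, SE 0.18, adjusted p = 0.0792 by edgeR) and Mybl2 (-0.96, SE 0.25, adjusted p = 0.118) did not pass, and Smc4 had the smallest called fall (-0.85). Without WT all 47 were called, and 638 genes in all. With either knockout left out, or with Per1KO day 5 alone left out, no member and no other gene was called, although all 47 members still had an unadjusted p under 0.05. With Per2KO day 3 left out 5 were called, with Per2KO day 5 left out 18, and with Per1KO day 3 left out 25.

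**Figure D3:**
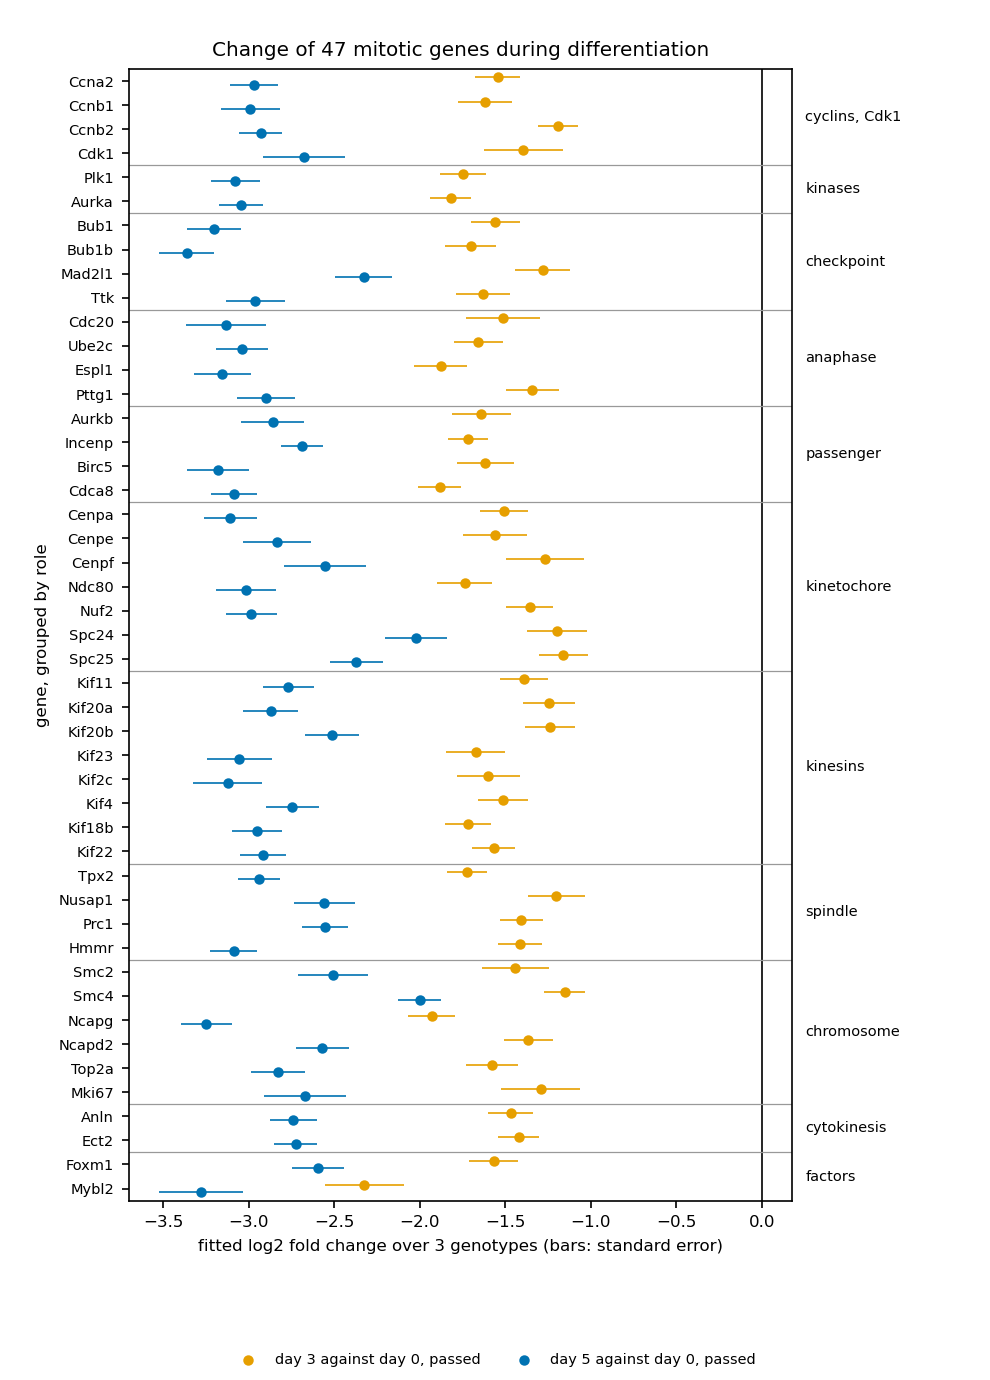
Log2 fold change of each member from day 0 to day 3 and from day 0 to day 5 (x axis), fitted over the 3 genotypes, with bars of 1 standard error and members ordered within roles. Every day 5 point lies to the left of its day 3 point, from Smc4 at -2.0 to Bub1b at -3.36 on day 5.

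Within each population, with 1 library per day and no test, all 47 members lay lower on day 3 than on day 0 and lower again on day 5. The median log2 difference between day 3 and day 0 was -1.63 in WT, -1.64 in Per1KO and -1.26 in Per2KO. Between day 5 and day 0 it was -2.94, -3.01 and -2.71. The summed day 0 level in Per2KO (6269 CPM) lay between those in WT (5267 CPM) and Per1KO (7792 CPM). Why the fall was shallower in Per2KO was not tested. The test of whether the response to differentiation differed between WT and the mean of both knockouts called none of the 47 members, and 0.18% of all genes. No member had an unadjusted p under 0.05 by edgeR, and DESeq2 and limma-voom also called none. This test counted days 3 and 5 as replicates of 1 phase. Its errors for the members were wide (SE 0.65 to 1.25 on the log2 scale), several times those of the other comparisons. The members' median difference was 0.12, with Mki67 (0.88), Cenpf (0.80) and Nusap1 (0.62) highest and Mybl2 (-0.67), Smc4 (-0.35) and Mad2l1 (-0.28) lowest. Without WT day 3 all 47 values were positive (median 0.98), and without WT day 5 41 were negative (median -0.35). Without Per1KO day 3 42 were negative (median -0.30), and without Per2KO day 3 41 were (median -0.31). Without Per1KO day 5 41 were positive (median 0.42), and without Per2KO day 5 42 were (median 0.42). All members fell between day 3 and day 5, so leaving out either day in a population shifts its later level by design. These turns of sign therefore do not show a direction of the response.

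Against WT, many members were higher in both knockouts and none was lower. In Per1KO 24 of 47 were higher over the 3 days, against 9.26% of all genes, and 0 were lower, against 10.1%. The median log2 difference was 0.52 (1.43-fold), with 46 of 47 values above 0 and SE of 0.12 to 0.25. In Per2KO 20 were higher, against 9.31% of all genes, and 0 were lower, against 10.6%, with a median of 0.49 (1.40-fold). Both comparisons used the same 3 WT libraries. Every difference was smaller than 2-fold. Leaving out the 10 members that share 10% or more of their 31-base sequences with other genes, a cut chosen after seeing the data, left 19 of 37 higher in Per1KO and 15 of 37 in Per2KO. Thinning every library to the smallest total gave 23 and 14. Without day 0 they were 15 and 21, without day 3 they were 5 and 1, and without day 5 they were 0 and 0, with 25 and 17 members still at an unadjusted p under 0.05 by edgeR. With single libraries left out they ran from 3 (without Per1KO day 0) to 24 in Per1KO and from 2 (without Per2KO day 5) to 22 in Per2KO.

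Cyclin A2 differed most in both. Ccna2 was at 168, 54.4 and 17.2 CPM in WT on days 0, 3 and 5, at 304, 97.6 and 39.3 CPM in Per1KO, and at 255, 99.5 and 38.5 CPM in Per2KO. Each knockout library lay above the WT library of its day. The log2 difference was 0.94 (SE 0.13, adjusted p = 0.00245 by edgeR) in Per1KO and 0.86 (SE 0.13, adjusted p = 0.00381) in Per2KO. Its partner Cdk1 passed in Per1KO (0.85, SE 0.23) and not in Per2KO (0.73, SE 0.23, adjusted p = 0.0626). The B cyclins did not pass in either: Ccnb1 was at 0.45 and 0.43, and Ccnb2 at 0.09 and 0.04. Ccnb1 shares 46.9% of its 31-base sequences with other genes, mostly the pseudogene Ccnb1-ps, so its counts are uncertain. Ccna2 shares 16.5% with Exosc9, which overlaps it on the opposite strand, so the counts of Ccna2 are uncertain too.

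Both entry kinases were higher, Plk1 by 0.75 (SE 0.14) in Per1KO and 0.51 (SE 0.14) in Per2KO and Aurka by 0.61 and 0.49. Plk1 shares 19.2% of its 31-base sequences with other genes, mostly the pseudogene Plk-ps1, so its counts are also uncertain. Both cytokinesis genes were also higher. Ect2 was at 88.0, 28.3 and 12.5 CPM in WT, at 160, 57.9 and 23.2 CPM in Per1KO, and at 134, 58.8 and 22.5 CPM in Per2KO. Again no knockout library fell below the WT library of its day, and the difference was 0.92 (SE 0.12) and 0.83 (SE 0.12), while Anln differed by 0.52 and 0.44. In the checkpoint, Bub1 (0.84 and 0.72) and Mad2l1 (0.78 and 0.67) passed in both knockouts, Ttk in Per1KO (0.59) and not in Per2KO (0.54), and Bub1b in neither (0.44 and 0.37).

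Of the passenger complex only survivin was called. Birc5 was at 83.3, 28.5 and 6.82 CPM in WT, at 161, 43.8 and 16.1 CPM in Per1KO, and at 119, 45.7 and 17.3 CPM in Per2KO, a difference of 0.88 (SE 0.17) and 0.80 (SE 0.17). Its partners were near WT: Cdca8 at 0.01 and -0.02 (SE 0.13), Incenp at 0.11 and 0.09, and Aurkb at 0.24 and 0.17. The near-zero values had no stable sign, since without day 3 Cdca8 was at 0.05 in Per2KO. In the kinetochore group 0 of 7 were called in Per1KO and 1 of 7 in Per2KO (Spc25, 0.53, against 0.50 in Per1KO). Of all genes, 9.26% and 9.31% were called higher, so both kinetochore counts were near or below the background share. Spc24 had the lowest value of all members, at -0.09 and -0.08 (SE 0.19), and turned to 0.13 and 0.03 without day 3. Whether roles differed from each other was not tested.

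Kinesins passed in 5 of 8 in Per1KO (Kif11, Kif20a, Kif20b, Kif23 and Kif4) and in 3 of 8 in Per2KO (Kif20a, Kif20b and Kif4). The background share for every role was 9.26% of all genes called higher in Per1KO and 9.31% in Per2KO. Kif20a differed by 0.87 (SE 0.15) and 0.74 (SE 0.16), and Kif2c by 0.19 and 0.02. Cdc23, which overlaps Kif20a, was itself called higher (0.36 and 0.45). All 4 spindle microtubule binders passed in Per1KO and 3 in Per2KO, with Nusap1 at 0.81 and 0.78. In the chromosome group Top2a (0.67 and 0.58), Ncapg (0.68 and 0.66) and Smc2 (0.86 and 0.79) passed in both, while Smc4 (0.31 and 0.36), Ncapd2 (0.20 and 0.14) and Mki67 (0.52 and 0.43) passed in neither. Among the anaphase genes only Ube2c passed (0.71 in both), and Cdc20 was at 0.27 and 0.18. Tnnc2, which overlaps Ube2c, was itself called higher in both knockouts. On day 5 Tnnc2 was at 9.68 CPM in WT, 66.0 CPM in Per1KO and 54.6 CPM in Per2KO. The part of Tnnc2 reads in the Ube2c difference was not tested. Foxm1 passed in both (0.68 and 0.51), and Mybl2 in neither (0.81, SE 0.25, and 0.67, SE 0.26).

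**Figure D4:**
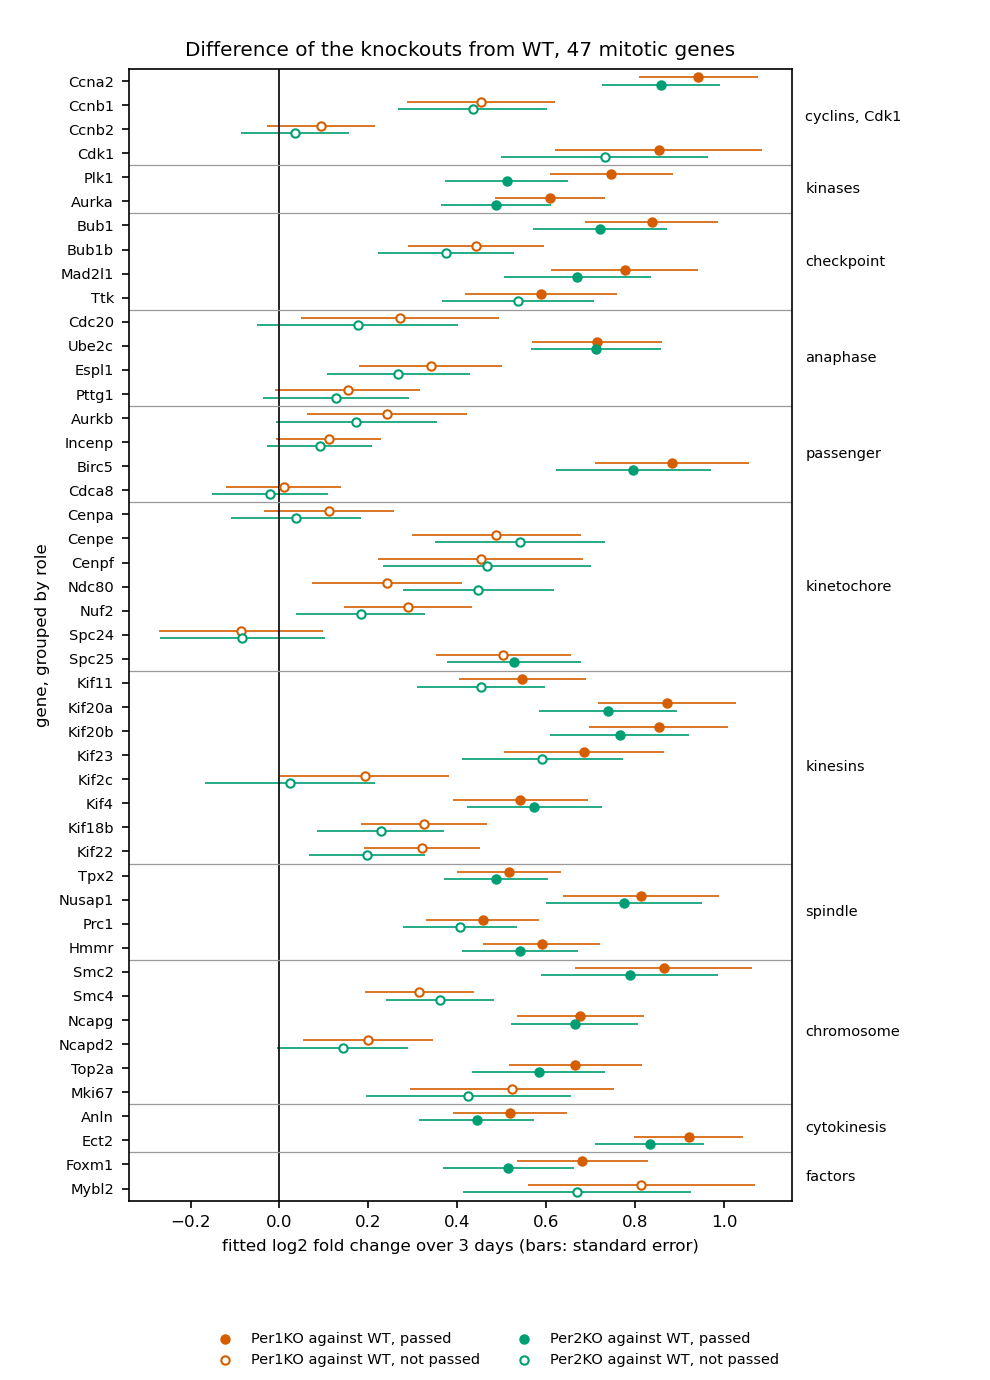
Log2 difference from WT of each member in Per1KO and in Per2KO (x axis), fitted over the 3 days, with bars of 1 standard error and filled symbols for members past the adjusted p threshold. Both populations share the WT libraries, nearly all points lie above 0, and the points run from Spc24 near 0 to Ccna2 at 0.94 and 0.86.

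Day by day, with 1 library each and so no test, both knockouts lay above WT on all 3 days for 31 of 47 members, against 19.9% of all genes. No member lay below WT on all 3 days, against 20% of all genes. In Per1KO the median log2 difference was 0.54 on day 0, 0.47 on day 3 and 0.52 on day 5. In Per2KO it was 0.26, 0.50 and 0.59. On day 0 of Per2KO 12 members lay below WT, the lowest being Cdc20 at -0.47 and Mki67 at -0.33. Cdc20 was then at 88.9 CPM (counting interval 86.3 to 91.5, exact Poisson, 95%) against 123 CPM (115 to 132) in WT. Members at least 2-fold higher numbered 2, 4 and 8 in Per1KO on days 0, 3 and 5, against 7.87%, 8.86% and 9.52% of all genes. In Per2KO they numbered 0, 7 and 8, against 7.94%, 9.16% and 9.73%. The counts on day 0 in both and on day 3 in Per1KO were thus at or below the background share. The largest on day 5 was Cdk1, at 1.427 and 1.496.

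Muscle genes also differed between WT and the knockouts on day 0. Myog, the regulator that commits myoblasts to differentiation, was at 124 CPM in WT against 5.35 and 2.91 CPM in Per1KO and Per2KO. Embryonic myosin Myh3 was at 140 CPM against 2.52 and 0.787 CPM. By day 5 Myog was at 1060 CPM in WT, 351 CPM in Per1KO and 271 CPM in Per2KO. Of 20 muscle contractile and regulatory genes, 2 were lower over the 3 days in Per1KO and 8 in Per2KO, and 1 (Tnnc2) was higher in each. Of all genes, 10.1% and 10.6% were called lower and 9.26% and 9.31% higher, so the counts in Per1KO were at or below the background share. In each knockout, though, 18 of the 20 values were below 0, with a median of -1.54 in Per1KO and -1.97 in Per2KO. In Per1KO 14 were lower at an unadjusted p under 0.05 by edgeR, and in Per2KO 16. The part of these differences in the mitotic genes' levels was not tested.

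Between the knockouts no member passed, and neither did any other gene (0% of all genes). By edgeR no member reached an unadjusted p under 0.05, whereas 88 of all genes did, limma-voom called no gene, and DESeq2 called 1 gene, not a member. Of the 47 values 40 were above 0, with a median of 0.07 and a range of -0.21 to 0.24 (SE 0.11 to 0.22). Plk1 had the highest value. Without Per2KO day 0 only 12 values were above 0 (median -0.04), without Per1KO day 0 25 were (median 0.0057), and without day 0 9 were (median -0.06). On day 0 Per1KO lay above Per2KO for 44 members, against 51.9% of all genes, with a median log2 difference of 0.32 and Cenpe, Ndc80 and Spc25 as the exceptions. Cdc20, for example, was at 129 CPM in Per1KO and 88.9 CPM in Per2KO, and Mki67 at 320 and 215 CPM. On day 3 it lay above for 12 members (50.9% of all genes), with a median of -0.06, and on day 5 for 20 members (52% of all genes), with a median of -0.02.

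**Figure D5:**
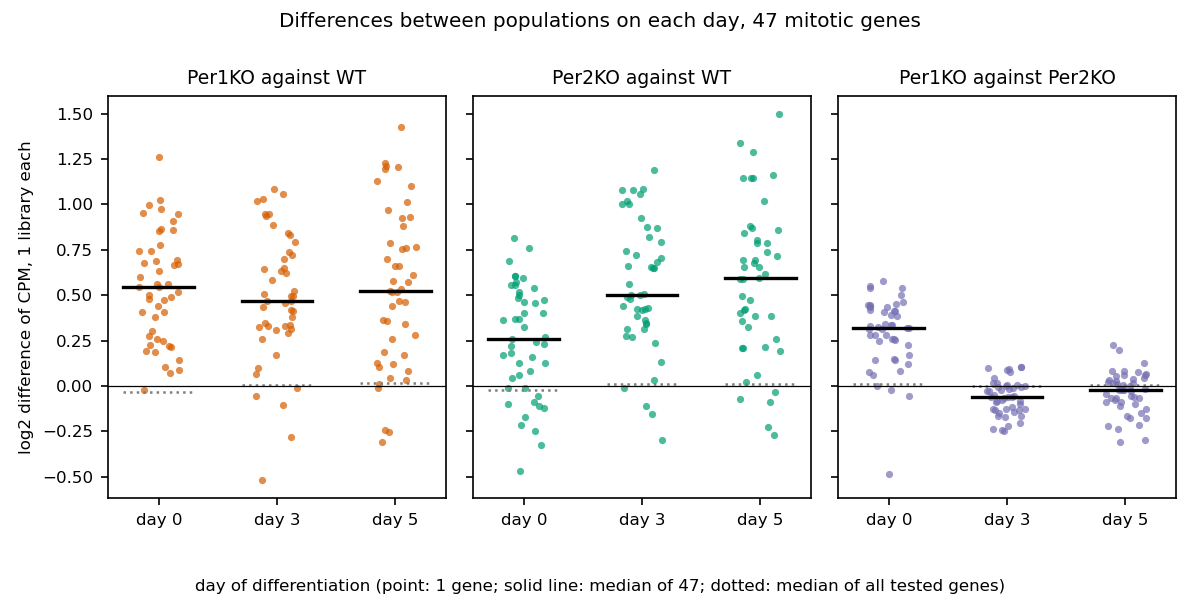
Log2 difference between single libraries of the same day for the 47 members (y axis; one point per member, bar at the median), for Per1KO against WT, Per2KO against WT and Per1KO against Per2KO. On day 0 the Per2KO points are centred at 0.26 and the Per1KO points at 0.54, and the difference between the knockouts is centred near 0 on days 3 and 5.

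Other genes of the cell cycle set these values in context. In a separate list of 71 mitotic genes, all 71 were lower on day 5 than on day 0 and 43 were lower on day 5 than on day 3. Against WT, 17 were higher and 1 lower in Per1KO, and 15 were higher and 1 lower in Per2KO. The exception was Cks2, a small partner of CDK1, which was lower in Per1KO (-1.18, adjusted p = 0.00317 by edgeR) and Per2KO (-1.32). Depdc1a was highest on this list in both (1.12 and 1.07). Of 34 S-phase genes, 33 were lower on day 5 than on day 0 (median -2.31). Between day 5 and day 3 none passed by edgeR, though 28 had an unadjusted p under 0.05 and the median was -0.93. In Per1KO 4 S-phase genes were called higher than in WT, and in Per2KO 2, against 9.26% and 9.31% of all genes. In each knockout, though, 32 of the 34 values were above 0. Their median was 0.50 in Per1KO and 0.33 in Per2KO, beside 0.52 and 0.49 for the members. Core subunits of the anaphase-promoting complex, which are needed outside mitosis as well, had a median change of -0.21 from day 0 to day 5. That of the members was -2.92. Of the 15 core subunits 7 were lower on day 5 and 1 was higher, against 22.9% and 23.2% of all genes. Of the 9 cohesin genes 6 were lower on day 5 (median -0.65), against 22.9% of all genes.

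The regulators that act through the promoter elements shown above moved in both directions. Of 21 MuvB, pocket protein, E2F and NF-Y genes, 10 were lower and 4 higher on day 5 than on day 0, against 22.9% and 23.2% of all genes. The count of higher genes was thus below the background share. E2f7 (-2.63) and the pocket protein Rbl1 (-2.21) changed most downward, and Lin9, a MuvB subunit, by -1.60. Rb1, the retinoblastoma protein that restrains E2F, rose by 1.41, from 68.9 to 111 CPM in WT, from 59.0 to 203 CPM in Per1KO and from 53.2 to 180 CPM in Per2KO. Rbl2, the pocket protein of the DREAM complex, was higher by 0.66. Against WT, 1 of the 21 was called higher and 0 lower in Per1KO, against 9.26% and 10.1% of all genes. In Per2KO 2 were higher and 2 lower, against 9.31% and 10.6%. These counts were near or below the background share. The MuvB subunit Lin54 was higher than WT in both knockouts (0.57 and 0.60). Lin52 (0.72) was called higher and E2f4 (-0.65) and E2f2 (-0.82) lower in Per2KO, while in Per1KO their values of 0.63, -0.55 and -0.59 did not pass.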

How the data were processed

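RNA sequencing counts were analysed for 9 C2C12 libraries, 1 for each of 3 populations on 3 days. The authors deposited raw counts, whole numbers for each Ensembl gene. HISAT2 2.1.0, CASAVA 1.8 and mm10 are named, without roles, per the submitters' processing notes; the counting program, annotation and strand setting are not given in the sources used here, so reads of overlapping genes cannot be told apart. Libraries were poly(A)-selected TruSeq, per the labels' protocols. Symbols, positions and exon lengths came from GENCODE on GRCm38, and promoter windows from RefSeq on GRCm38.p6.

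The 13324 genes at or above 1 CPM in 3 or more libraries were scaled by TMM and fitted with edgeR 4.0.16 (robust quasi-likelihood, genotype plus day, 4 residual degrees of freedom). The test of differing responses used genotype, day 0 against later days and their interaction (3 residual degrees of freedom). Benjamini-Hochberg adjustment ran over all genes with a threshold of 0.05. Standard errors are the absolute log2 fold change divided by the square root of F. Single-library differences used log2 CPM with a prior count of 2. CPM in the text are TMM-scaled, and intervals cover counting error only. The scripts were tested on simulated data. Alternatives were DESeq2 1.42.0, limma-voom 3.58.1, other scalings and filters, thinning, and leaving out libraries, days or genotypes. Members, roles and gene lists were chosen with earlier results of these data known. Genes named with values were the most abundant of each role and the 3 highest and 3 lowest fold changes per comparison; other members are given to account for the whole group, and genes of other lists were named after their values were seen.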

Additional observations from a re-analysis of the deposited data

Results flagged for a closer look

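For 8 members the difference from WT had opposite signs on 2 days in both knockouts. The share of all tested genes that meet this rule was not counted, so 8 cannot be called many or few. Some of the values lay close to 0. Each value below is the mean log2 difference of the 2 knockouts from WT on the first day minus that on the second, from single libraries, and these differences were not tested. Both knockouts share the WT library of each day, so 1 WT library can move both. The destruction of securin starts anaphase: Pttg1 lay above WT on day 3 (0.45) and below on day 5 (-0.20), a difference of 0.643. Kif2c, which depolymerises microtubules, went from 0.61 to -0.26 between these days (0.866), and Cenpa, the centromeric histone, from 0.34 to -0.24 (0.574). Of the Ndc80 complex, 2 subunits went the other way, Spc24 from -0.41 to 0.29 (-0.697) and Nuf2 from -0.01 to 0.51 (-0.521), and Nuf2 had lain at 0.30 on day 0 (0.309 against day 3). In the passenger complex, Incenp lay above WT on days 0 and 5 (0.22 and 0.20) and below on day 3 (-0.11), giving 0.327 and -0.308. Cdca8 followed the same order (0.12, -0.22 and 0.09), giving 0.331 and -0.31. Ccnb2 lay above WT on day 3 (0.28) and slightly below on days 0 and 5 (-0.06 and -0.02), giving -0.337 and 0.297. WT counts behind these values were low on day 5, with 24 for Spc24.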

How the results depend on the processing

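All 47 members were called lower on day 5 than on day 0 under every alternative, and on day 3 under every alternative but 1 (43 without Per1KO). The 24 members higher in Per1KO became 15 without day 0, 5 without day 3, 0 without day 5 and 12 with only the 2 genotypes compared; leaving out 1 library gave 3 to 24, with 12 without WT day 5, 13 without Per1KO day 3, 7 without Per1KO day 5 and 3 without Per1KO day 0. The 20 higher in Per2KO became 21 without day 0, 1 without day 3, 0 without day 5 and 3 with only the 2 genotypes; leaving out 1 library gave 2 to 22, with 9 without WT day 5, 12 and 10 without Per1KO day 3 or day 5, and 3 and 2 without Per2KO day 3 or day 5. The 45 lower on day 5 than on day 3 became 47 without WT, 0 without Per1KO and 0 without Per2KO, and 0 to 46 without 1 library. Other scalings, DESeq2, limma-voom, thinning and protein-coding genes alone kept all these counts within 1.5 times. With no low-count filter the median of all genes moved to 0.12 in Per1KO and 0.11 in Per2KO, beside members' medians of 0.60 and 0.57.

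Between the knockouts the 40 positive values became 12 without Per2KO day 0, 25 without Per1KO day 0 and 9 without day 0. Signs of single named members turned near 0 against WT and in the interaction. Without day 3, Spc24 was at 0.13 in Per1KO and 0.034 in Per2KO, Ccnb2 at -0.030 in Per1KO, Cdca8 at 0.045 in Per2KO and Kif2c at -0.25 in Per2KO. Cdca8 in Per1KO was at -0.12 without day 0, -0.045 without day 5 and -0.16 after thinning, and Spc24 at 0.029 after thinning. Cdca8 in Per2KO was at 0.058 with no low-count filter and 0.017 among protein-coding genes. Leaving out 1 library gave -0.22 to 0.072 for Spc24 in Per1KO, -0.083 to 0.12 for Cdca8 in Per1KO, -0.023 to 0.18 for Ccnb2 in Per1KO, -0.21 to 0.080 for Spc24 in Per2KO, -0.11 to 0.088 for Cdca8 in Per2KO, -0.22 to 0.17 for Kif2c in Per2KO, -1.27 to 0.55 for Mybl2 in the interaction, -0.73 to 0.17 for Smc4 in the interaction and -0.84 to 0.72 for Mad2l1 in the interaction. In the interaction, leaving out a day 3 or day 5 library shifts the values by design, as both days counted as 1 phase. The cause of the other turns was not tested. For promoters, the 250 bases before the start alone held a CHR in 20 members and both elements in 18; within 50 bases of the start CCAAT was found in 19, both in 17, and 2 or more CCAAT in 2. The fit already holds day as a term between genotypes and genotype as a term between days; the labels give no replicate numbers for a further block. Leaving out a day 0 library could not be run for the interaction, which then lacks a group. Depth limits WT most: 3 counts correspond to 0.424 to 0.660 CPM there.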
